A study of Rattus norvegicus with 12 samples.

Results

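A set of 9 genes, of 43206 in the deposited table, was followed: the microglia markers Aif1, Cd68, Itgam, Csf1r and Ptprc, the complement genes C1qa, C1qb and C1qc, and Tspo. They were chosen by gene identifier from a list of genes tied to microglia, and all 9 identifiers were present in the files. The levels were measured by RNA sequencing of prefrontal cortex from SD rats at postnatal day 28. The labels give 4 libraries to an acupuncture group, 4 to a hypoxic-ischemic brain damage (HIBD) model group and 4 to a normal group. For the acupuncture group the labels state the treatment alone; that these rats also had the damage is taken from the series title. Strain, tissue and age were the same in all 3 groups. The sources used here do not state how and when the damage was made, how the acupuncture was given, the sex of the animals or the hemisphere taken. Libraries are called by the numbers in their labels. Whether 1 number stands for 1 animal is not stated, so p-values measure the spread between libraries, which may be technical.

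Microglia are the resident macrophages of the brain, and border macrophages and blood-derived leukocytes share some of their marker genes. C1q is the recognition molecule of the classical complement pathway and is built from A, B and C chains, each encoded by its own gene. In rodent brain it is made mainly by microglia, and in mice it has been linked to the removal of synapses. In tissue RNA, fewer cells of a type and less RNA per cell cannot be told apart.

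All 9 genes were detected in all 12 libraries, and all 9 passed the filter on low values that left 27885 genes for testing. The values deposited for each library were read as FPKM, a unit per transcript length that the files and labels do not name. Comparison between genes rests on this reading. On this scale Csf1r stood highest, with a mean level of 24.9 over the 12 libraries. C1qa followed at 21.9, C1qc at 16.7, C1qb at 15.2 and Aif1 at 7.50 FPKM. These 5 genes lay between the 71.9th and the 89.8th percentile of the tested genes. Itgam averaged 1.63, Tspo 0.900, Ptprc 0.892 and Cd68 0.454 FPKM, and so stood far below the other 5. Neighbours in this order were not all apart: Csf1r was above C1qa in 8 of 12 libraries, Itgam above Tspo in 7 and Tspo above Ptprc in 8. C1qa was above C1qc, C1qc above C1qb and C1qb above Aif1 in 11 of 12 libraries each, and Aif1 was above Itgam in all 12. The order depended on the scale. In CPM (defined below), which is not per transcript length, Ptprc averaged 5.96 and C1qa 5.00 in normal libraries.

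The total estimated counts ranged from 714904584 in acupuncture replicate 5 to 1090316733 in HIBD model replicate 18. No counting interval is given because the worth of a unit in reads is unknown. For the same reason these totals are not read as sequencing depth, and standard errors and p-values from count models carry this limit. The share of the total taken by loci that a transcript assembler had named was 1.79 ± 0.530% in acupuncture, 1.90 ± 0.385% in HIBD model and 1.01 ± 0.337% in normal libraries (SD, n = 4). Markers of other cell types, and other microglial and complement genes, were not analysed here, because nothing in the sources used pairs their names with the identifiers of the files.

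The 3 C1q genes, C1qa (ENSRNOG00000012807), C1qb (ENSRNOG00000012804) and C1qc (ENSRNOG00000012749), lie side by side on rat chromosome 5, with no other annotated gene starting between them in the RefSeq annotation (GRCr8). RefSeq promoter sequences were matched by symbol for 6 of the 9 genes, C1qa and C1qb among them. The 250 bases before each start are shown for C1qa and C1qb, since no sequence was matched for C1qc. Both lie on the minus strand and are written 5′ to 3′ along the gene, C1qa from chr5:154419934-154420183 and C1qb from chr5:154407828-154408077 (GRCr8). Capitals mark GAGGAA and GGAAGT on either strand, purine-rich words of the kind bound by the ETS factor PU.1, a regulator of macrophage genes.
C1qa: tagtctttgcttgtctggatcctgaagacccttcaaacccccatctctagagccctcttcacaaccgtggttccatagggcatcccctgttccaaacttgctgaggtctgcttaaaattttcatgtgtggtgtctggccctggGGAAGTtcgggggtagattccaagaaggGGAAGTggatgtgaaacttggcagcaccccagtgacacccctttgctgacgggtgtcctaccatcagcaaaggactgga
C1qb: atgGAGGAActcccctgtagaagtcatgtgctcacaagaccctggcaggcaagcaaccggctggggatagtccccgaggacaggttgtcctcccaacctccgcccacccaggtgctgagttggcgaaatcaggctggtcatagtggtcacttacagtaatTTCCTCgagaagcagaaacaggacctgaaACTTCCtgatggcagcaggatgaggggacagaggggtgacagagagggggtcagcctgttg
C1qa held 2 copies of GGAAGT and 0 of GAGGAA, while C1qb held 1 copy of GGAAGT and 2 of GAGGAA. Over all 33469 promoters of the same length, 19.2% held GGAAGT and 23.3% held GAGGAA at least once, so both words are common. The 2 words can overlap and did not do so in either sequence shown. Of the other 4 genes with a sequence, Cd68 and Ptprc held both words, and Itgam and Csf1r held GAGGAA alone. A match of letters is a description of the sequence and says nothing about binding.

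C1qb and C1qc were the only 2 of the 9 genes whose CPM values lay below all normal libraries in both other groups. Of all tested genes, 5.39% did so in HIBD model and 8.60% in acupuncture libraries. The share doing so in both, which were set against the same normal libraries, was not counted. None of the 3 C1q genes passed the test in either comparison. C1qc had 5.74, 4.53, 3.21 and 6.42 CPM (a gene's estimated count over its library's TMM-adjusted total) in HIBD model replicates 2, 8, 16 and 18, against 7.84, 7.49, 6.87 and 10.0 CPM in normal replicates 8, 10, 11 and 13. The 2 ranges did not overlap, with all 4 HIBD model libraries below all 4 normal ones. The means were 4.97 ± 1.41 CPM for HIBD model against 8.05 ± 1.37 CPM for normal (SD, n = 4 each). In edgeR's quasi-likelihood test this gave a log2 fold change of -0.69 with an SE of 0.27 (unadjusted p = 0.0261, adjusted p = 0.167). C1qb had 3.31, 2.25, 1.45 and 3.98 CPM in HIBD model replicates 2, 8, 16 and 18, against 4.0, 4.18, 4.06 and 5.84 CPM in normal replicates 8, 10, 11 and 13. HIBD model replicate 18 came within 0.02 CPM of the lowest normal library, and on the deposited FPKM scale it lay above it, at 19.4 against 18.8 FPKM, so the separation of C1qb rested on the scaling. Its log2 fold change was -0.72 (SE 0.34, edgeR adjusted p = 0.238). C1qa had 4.31, 3.67, 2.11 and 4.64 CPM in HIBD model replicates 2, 8, 16 and 18, against 3.98, 5.07, 4.23 and 6.72 CPM in normal replicates 8, 10, 11 and 13. The groups overlapped for C1qa, whose log2 fold change was -0.44 (SE 0.32, edgeR adjusted p = 0.460). It was -0.25 without HIBD model replicate 16 and also -0.25 without normal replicate 13.

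The same genes were low in acupuncture libraries, which were set against the same normal libraries, so the 2 comparisons are not independent. C1qc had 5.88, 4.82, 2.63 and 5.45 CPM in acupuncture replicates 5, 22, 35 and 55, all below the lowest normal library. Its acupuncture mean was 4.70 ± 1.44 CPM (SD, n = 4), for a log2 fold change of -0.78 (SE 0.27, edgeR unadjusted p = 0.0153, adjusted p = 0.125). C1qb had 2.81, 2.71, 1.33 and 3.30 CPM in acupuncture replicates 5, 22, 35 and 55, also below all normal libraries, and its log2 fold change was -0.83 (SE 0.34, edgeR adjusted p = 0.164). Both genes stayed below all normal libraries on the FPKM scale too. C1qa had 4.22, 3.33, 1.79 and 4.40 CPM in the same 4 libraries and overlapped the normal group. Its log2 fold change was -0.54 (SE 0.32, edgeR adjusted p = 0.321), and it was -0.33 without acupuncture replicate 35. DESeq2, tried as another method, put C1qc just under the threshold in this comparison (DESeq2 adjusted p = 0.0494, the lowest of 22 alternatives that reached up to 0.299). C1qc was the only one of the 9 genes to pass there, where DESeq2 called 4312 of 27737 genes, so a pass was common.

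**Figure D1:**
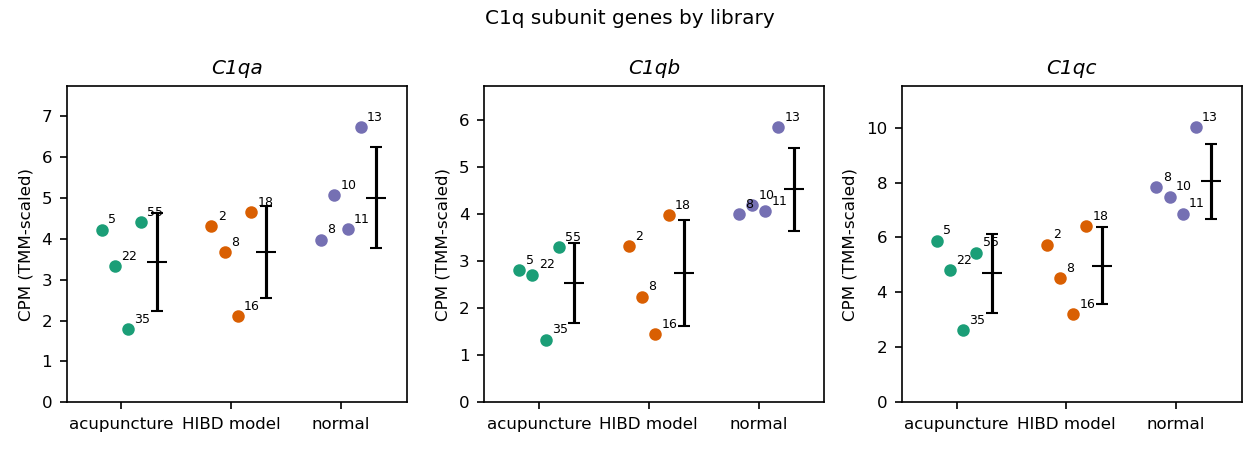
Level of C1qa, C1qb and C1qc in CPM (vertical axis) in the acupuncture, HIBD model and normal groups, with 1 point per library labelled by its replicate number and the mean ± SD in black (n = 4). Acupuncture replicate 35 and HIBD model replicate 16 lie lowest and normal replicate 13 highest in all 3 panels.

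The C1q counts were read against all genes tested. For HIBD model against normal, 0 of the 9 genes passed an adjusted p of 0.05, against 0.0968% of all tested genes, and 1 of 9, C1qc, had an unadjusted p under 0.05 with a lower value, against 8.83%. C1qb and C1qc, 2 of the 9, had ranges entirely below normal, against 5.39% of all tested genes. For acupuncture against normal, 0 of 9 passed, against 0.0825%, and 2 of 9 had an unadjusted p under 0.05 with a lower value, against 10.4%. The same 2 genes had ranges entirely below normal there, against 8.60%. Between acupuncture and HIBD model, 0 of 9 passed in edgeR, against 0% of all genes, 0 of 9 had an unadjusted p under 0.05, against 5.31%, and 0 of 9 had ranges entirely below HIBD model, against 1.01%. Limma-voom also called 0 of the 9 in all 3 comparisons.

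Acupuncture and HIBD model libraries showed close C1q levels. The log2 fold change between them was -0.10 for C1qa (SE 0.32), -0.12 for C1qb (SE 0.33) and -0.08 for C1qc (SE 0.27), each with an edgeR adjusted p of 0.9998. The sign depended on single libraries: without acupuncture replicate 35 the values were 0.11, 0.10 and 0.11. The standard errors leave room for differences of either sign.

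The 3 C1q genes kept a steadier ratio to each other than each kept to its own mean. Over the 12 libraries the FPKM ratio of C1qb to C1qc had a coefficient of variation of 10.0%, that of C1qa to C1qc 11.9% and that of C1qa to C1qb 14.7%. The levels themselves varied by 37.2% for C1qa, 44.2% for C1qb and 39.7% for C1qc. Their FPKM ratios to Csf1r lay between, at 24.6% for C1qa, 30.2% for C1qb and 24.9% for C1qc. A ratio steadier than the levels was thus not particular to pairs of C1q genes. The ratio of C1qa to C1qb was 1.58 ± 0.135 in acupuncture, 1.62 ± 0.234 in HIBD model and 1.29 ± 0.117 in normal libraries (SD, n = 4). Its lowest value in acupuncture, 1.43, lay above the highest in normal libraries, 1.42, by a margin smaller than the spread of either group. In HIBD model libraries it ran from 1.365 to 1.908 and overlapped the normal range. On average C1qa therefore differed less from normal than C1qb did, a difference between genes that was not tested.

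Single libraries set much of the C1q spread. The summed FPKM of the 3 genes was 22.1 in acupuncture replicate 35 and 23.9 in HIBD model replicate 16, against 38.7 to 64.8 in the other acupuncture and HIBD model libraries. In normal libraries it was 62.2 to 98.9, with normal replicate 13 at the top. The share of assembled loci was 1.60% in acupuncture replicate 35 and 2.35% in HIBD model replicate 16, the highest of all libraries, against 0.863% in normal replicate 13. It was also high in acupuncture replicate 5, at 2.24%, where the summed C1q level was 48.8 FPKM. The part of this share in the C1q differences was not tested.

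**Figure D2:**
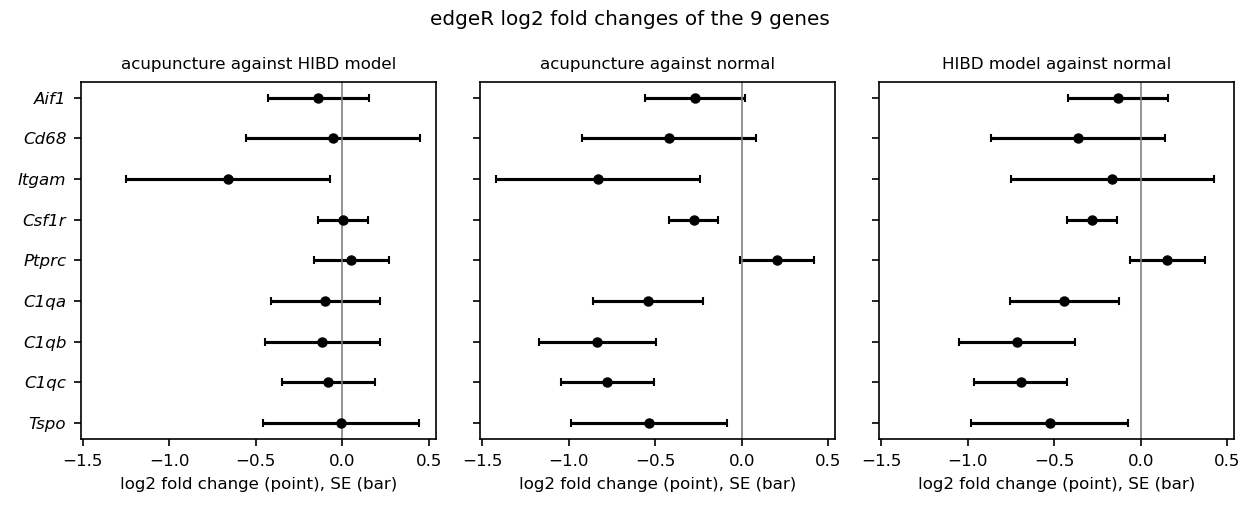
Log2 fold change (point) and its standard error (bar) from edgeR for each of the 9 genes, in acupuncture against HIBD model, acupuncture against normal and HIBD model against normal. Against normal, all genes except Ptprc have points below 0, while against HIBD model Itgam has the lowest point, at -0.66.

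Csf1r (ENSRNOG00000018414), the receptor for the growth factors CSF1 and IL-34 on which microglia depend, varied least of the 9 genes, with a coefficient of variation of 19.7% in FPKM over the 12 libraries. It had 42.6, 48.8, 28.5 and 42.3 CPM in HIBD model replicates 2, 8, 16 and 18, against 47.3, 44.9, 50.9 and 54.1 CPM in normal replicates 8, 10, 11 and 13. Of the HIBD model libraries, 3 lay below all normal ones, and replicate 8 lay among them. The log2 fold change was -0.28 (SE 0.14, edgeR unadjusted p = 0.0751, adjusted p = 0.279), and it was -0.15 without HIBD model replicate 16. In acupuncture replicates 5, 22, 35 and 55 Csf1r had 45.6, 40.2, 39.8 and 37.1 CPM, of which 3 lay below all normal libraries. Against normal its log2 fold change was again -0.28 (SE 0.14, edgeR adjusted p = 0.259). Group means were 40.7 ± 3.54 CPM for acupuncture and 40.6 ± 8.58 CPM for HIBD model (SD, n = 4 each), and the log2 fold change between them was 0.00 (SE 0.14, edgeR adjusted p = 0.9998).

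Set against Csf1r in the same library, the C1q genes were still lower on average outside the normal group. The FPKM ratio of C1qc to Csf1r was 0.564 ± 0.169 in acupuncture, 0.596 ± 0.125 in HIBD model and 0.797 ± 0.102 in normal libraries (SD, n = 4). The ratio of C1qb to Csf1r was 0.503 ± 0.181 in acupuncture, 0.534 ± 0.181 in HIBD model and 0.732 ± 0.0997 in normal libraries. The ratio of C1qa to Csf1r, at 0.795 ± 0.285, 0.838 ± 0.169 and 0.949 ± 0.196 in acupuncture, HIBD model and normal libraries, differed by less than its spread. For all 3 genes the ranges of the acupuncture and HIBD model groups overlapped the normal range, and no test was made of these ratios.

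Aif1 (ENSRNOG00000000853), which encodes the actin-binding protein Iba1 used to stain microglia, had overlapping groups in all 3 comparisons. It had 0.780, 1.41, 0.687 and 0.825 CPM in HIBD model replicates 2, 8, 16 and 18, against 0.763, 0.878, 0.921 and 1.49 CPM in normal replicates 8, 10, 11 and 13. HIBD model replicate 8 and normal replicate 13 stood above the other libraries of their groups, and the groups overlapped. Its log2 fold change was -0.13 (SE 0.29, edgeR adjusted p = 0.842), and it was 0.12 without normal replicate 13. Aif1 means were 0.840 ± 0.161 CPM for acupuncture, 0.924 ± 0.326 CPM for HIBD model and 1.01 ± 0.323 CPM for normal (SD, n = 4). Its FPKM ratio to Csf1r was 0.294 ± 0.0631 in acupuncture, 0.320 ± 0.0671 in HIBD model and 0.290 ± 0.0712 in normal libraries, differences smaller than the spread within each group.

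Cd68 (ENSRNOG00000037563), a lysosomal glycoprotein of phagocytes, had the lowest level of the 9 genes. Its means were 0.0495 ± 0.0142 CPM for acupuncture, 0.0514 ± 0.0301 CPM for HIBD model and 0.0662 ± 0.0325 CPM for normal (SD, n = 4). Against normal the log2 fold change was -0.42 for acupuncture (SE 0.50, edgeR adjusted p = 0.649) and -0.36 for HIBD model (SE 0.50, edgeR adjusted p = 0.731). Without normal replicate 13, which alone had 0.112 CPM, the values were -0.046 for acupuncture and 0.03 for HIBD model, and without HIBD model replicate 18 the value for HIBD model was -0.84.

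Tspo (ENSRNOG00000010549) encodes a protein of the outer mitochondrial membrane that is used as an imaging target for glial activation and is also found in endothelium and astrocytes. It had 0.597, 0.420, 0.173 and 0.856 CPM in HIBD model replicates 2, 8, 16 and 18, against 0.551, 0.773, 0.565 and 1.06 CPM in normal replicates 8, 10, 11 and 13. The groups overlapped. As for the C1q genes, HIBD model replicate 16 was lowest and replicate 18 highest in its group, and normal replicate 13 was highest in the normal group. For HIBD model against normal the log2 fold change was -0.53 (SE 0.45, edgeR adjusted p = 0.552). Single libraries moved it both ways, to -0.24 without HIBD model replicate 16, -0.28 without normal replicate 13 and -0.88 without HIBD model replicate 18. Acupuncture replicates 5, 22, 35 and 55 had 0.510, 0.552, 0.291 and 0.679 CPM, a log2 fold change of -0.54 against normal (SE 0.45, edgeR adjusted p = 0.503) and of -0.01 against HIBD model (SE 0.45, edgeR adjusted p = 0.9998). The value for acupuncture against normal was -0.34 without acupuncture replicate 35 and -0.31 without normal replicate 13.

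**Figure D3:**
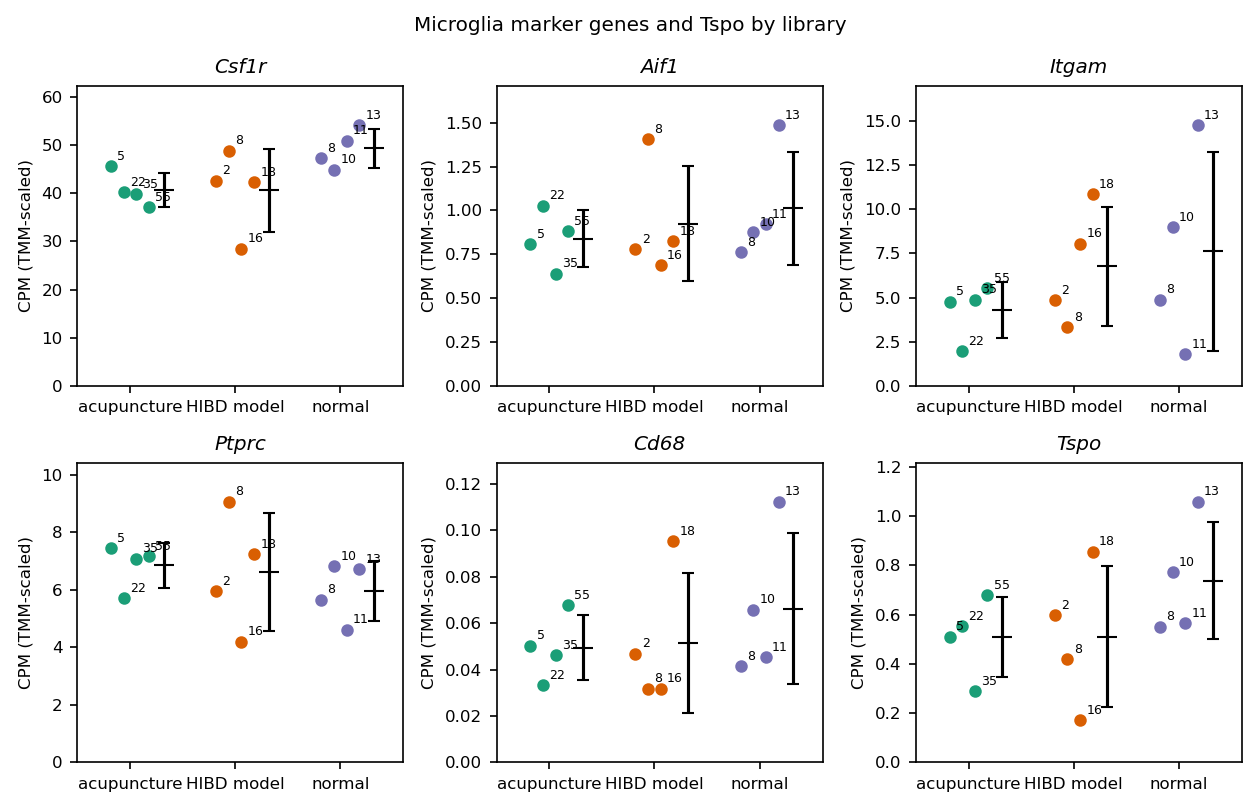
Level of Csf1r, Aif1, Itgam, Ptprc, Cd68 and Tspo in CPM (vertical axis) in the acupuncture, HIBD model and normal groups, with 1 point per library labelled by its replicate number and the mean ± SD in black (n = 4). The groups overlap in all 6 panels, and Itgam spreads most relative to its mean, from 1.79 to 14.8 CPM within the normal group.

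Itgam (ENSRNOG00000019728) encodes CD11b, the alpha chain of a complement receptor that binds fragments of the component C3, and was the most variable of the 9 genes. It had 4.78, 1.96, 4.88 and 5.53 CPM in acupuncture replicates 5, 22, 35 and 55 and 4.85, 3.34, 8.06 and 10.9 CPM in HIBD model replicates 2, 8, 16 and 18. Normal replicates 8, 10, 11 and 13 had 4.89, 9.01, 1.79 and 14.8 CPM, so the normal range held all the others. For acupuncture against HIBD model its log2 fold change was -0.66 (SE 0.59, edgeR adjusted p = 0.9998). It was -0.83 for acupuncture against normal (SE 0.59, edgeR adjusted p = 0.419) and -0.17 for HIBD model against normal (SE 0.59, edgeR adjusted p = 0.907). Without normal replicate 13 these 2 values were -0.30 and 0.38. Unlike C1q and Tspo, Itgam was not low in HIBD model replicate 16.

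The Itgam values were divided over 3 transcript rows, and the division changed between libraries. ENSRNOT00000026748 made up 37.6% to 96.4% of the Itgam FPKM and ENSRNOT00000086003 made up 3.56% to 62.4%. ENSRNOT00000086003 took the larger part in acupuncture replicate 5, HIBD model replicate 8 and normal replicate 8, 1 library in each group. These rows carry different weights, since 1 FPKM stood for 3183 estimated counts in ENSRNOT00000026748 and for 7868 in ENSRNOT00000086003. A level of Itgam in CPM therefore depends on how the authors' software divided reads between the 2 rows. In FPKM Itgam averaged 1.0 ± 0.485 in acupuncture, 1.85 ± 1.17 in HIBD model and 2.05 ± 1.76 in normal libraries (SD, n = 4).

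Ptprc (ENSRNOG00000000655) encodes CD45, a tyrosine phosphatase of all nucleated blood-lineage cells whose RNA is alternatively spliced. It was the only one of the 9 genes with a mean above normal in both other groups. It had 7.46, 5.72, 7.09 and 7.19 CPM in acupuncture replicates 5, 22, 35 and 55 and 5.97, 9.07, 4.20 and 7.26 CPM in HIBD model replicates 2, 8, 16 and 18. Normal replicates 8, 10, 11 and 13 had 5.67, 6.82, 4.62 and 6.73 CPM, and all groups overlapped. The log2 fold change was 0.20 for acupuncture against normal (SE 0.22, edgeR adjusted p = 0.603) and 0.15 for HIBD model against normal (SE 0.22, edgeR adjusted p = 0.739). The value for acupuncture was 0.0901 without normal replicate 11, and the value for HIBD model was -0.0373 without HIBD model replicate 8. In FPKM, relative to Csf1r, Ptprc stood at 0.0410 ± 0.00515 in acupuncture, 0.0387 ± 0.00491 in HIBD model and 0.0295 ± 0.00615 in normal libraries (SD, n = 4), a ratio that was not tested.

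A single transcript row carried nearly all of the Ptprc signal in each library, and it was not the same row throughout. ENSRNOT00000000814 led in acupuncture replicates 5, 22 and 55, HIBD model replicates 8 and 18 and normal replicate 10, with 0.713 to 1.11 FPKM. In the other 6 libraries it was listed at 0, and ENSRNOT00000064785 led with 0.514 to 0.940 FPKM. The row ENSRNOT00000064785 had only 0.010 to 0.027 FPKM in the first 6 libraries. The row ENSRNOT00000000814 thus led in 3 of 4 acupuncture, 2 of 4 HIBD model and 1 of 4 normal libraries, a difference that was not tested. Among 8194 genes with at least 2 transcript rows and a summed level above 0.5 FPKM in every library, 67 were divided in this way, with 1 row taking at least 80% in every library and 2 rows taking turns. The 67 genes showed 47 different divisions of the libraries, and the most common was shared by 5 genes. The division of Ptprc was held by Ptprc alone. With 67 genes in 47 divisions, most divisions must be held by 1 gene, so this was not particular to Ptprc. The 2 rows carry nearly the same weight, since 1 FPKM stood for 6887 and 6936 estimated counts. The summed Ptprc level was 5.72 to 9.07 CPM in the 6 libraries led by ENSRNOT00000000814, against 4.20 to 7.09 CPM in the other 6, and the part of the leading row in the Ptprc level was not tested.

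**Figure D4:**
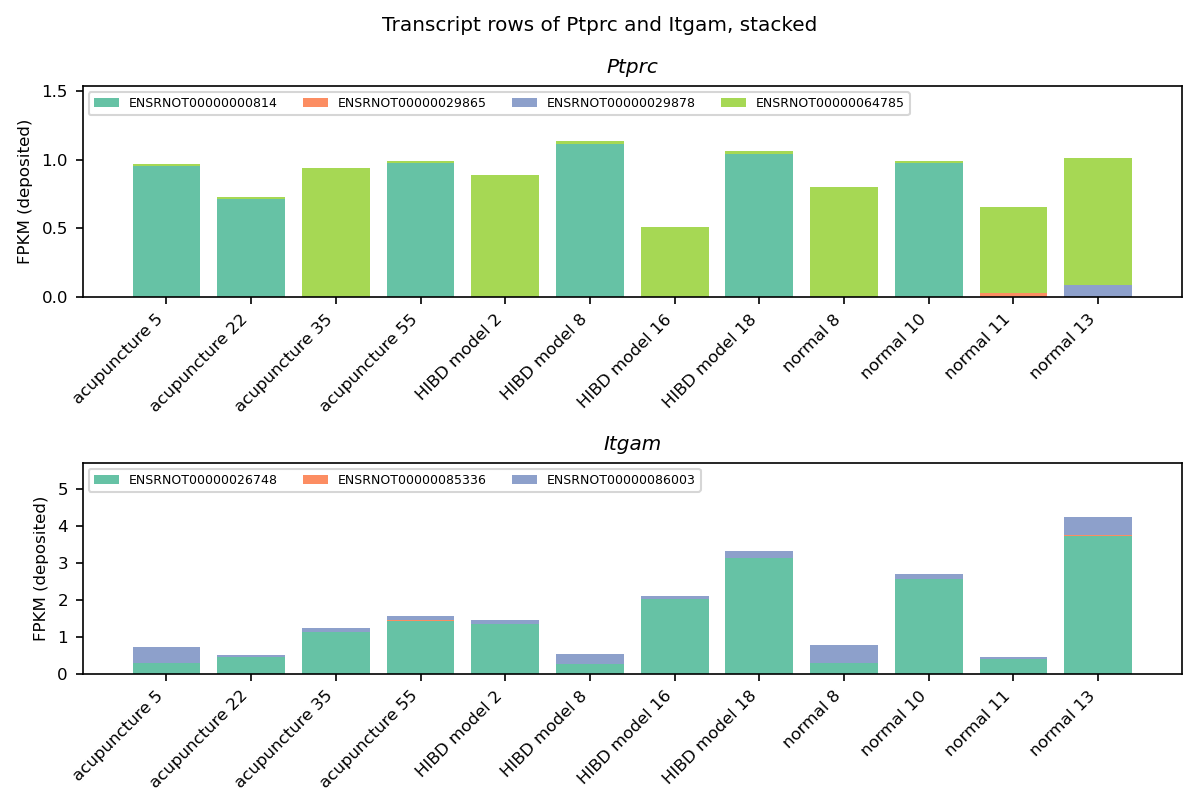
Deposited FPKM (vertical axis) of each transcript row of Ptprc (top) and Itgam (bottom), stacked by library (horizontal axis, grouped as acupuncture, HIBD model and normal). Ptprc is carried by 1 of 2 rows in each library, 6 libraries each, while the height of the bars stays between 0.514 and 1.14 FPKM.

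The remaining genes raised no such question. C1qa, C1qb, C1qc, Cd68 and Tspo had 1 transcript row each. Of 5 Aif1 rows, ENSRNOT00000001135 took 95.8% to 99.0% of the FPKM, and the row named by the assembler took at most 2.86%. Of 3 Csf1r rows, ENSRNOT00000049357 took 72.9% to 88.3%. The row ENSRNOT00000079360 of Csf1r reached 15.9% in HIBD model replicate 8, and its share was as low as 1.85% in another library.

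Seen together, the 9 genes had a median log2 fold change of -0.36 between HIBD model and normal libraries, against 0.01 over all tested genes, and 8 of 9 were below 0, against 49.2%. Between acupuncture and normal the median was -0.54, against 0.02 over all tested genes, and 8 of 9 were below 0, against 48.7%. Between acupuncture and HIBD model it was -0.08, against 0.00, with 7 of 9 below 0, against 50.3%. Over the tested genes with an Ensembl identifier alone, as all 9 have, the median was -0.07 for HIBD model against normal and -0.08 for acupuncture against normal. The genes share libraries and largely a cell type, so these counts are a description and not a test. They rested in part on normal replicate 13, which had the highest level of all 12 libraries for 8 of the 9 genes. The share of all tested genes with their highest level of 12 in this library was not counted. Among normal libraries alone it was the highest for 8 of the 9 genes, against 22.9% of all tested genes. Without it, the median against normal was -0.22 for HIBD model, with 5 of 9 below 0, and -0.30 for acupuncture, with 8 of 9 below 0. HIBD model replicate 16 was the lowest of its group for 8 of the 9 genes, against 25.0% of all tested genes, and without it the median of HIBD model against normal was -0.24, while without HIBD model replicate 18 it was -0.56. Without acupuncture replicate 35 the median of acupuncture against normal was -0.34. Single libraries also turned the median of acupuncture against HIBD model, which was 0.04 with 3 of 9 below 0 without acupuncture replicate 35, 0.05 with 2 of 9 without HIBD model replicate 18, and -0.26 with 9 of 9 without HIBD model replicate 16.

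**Figure D5:**
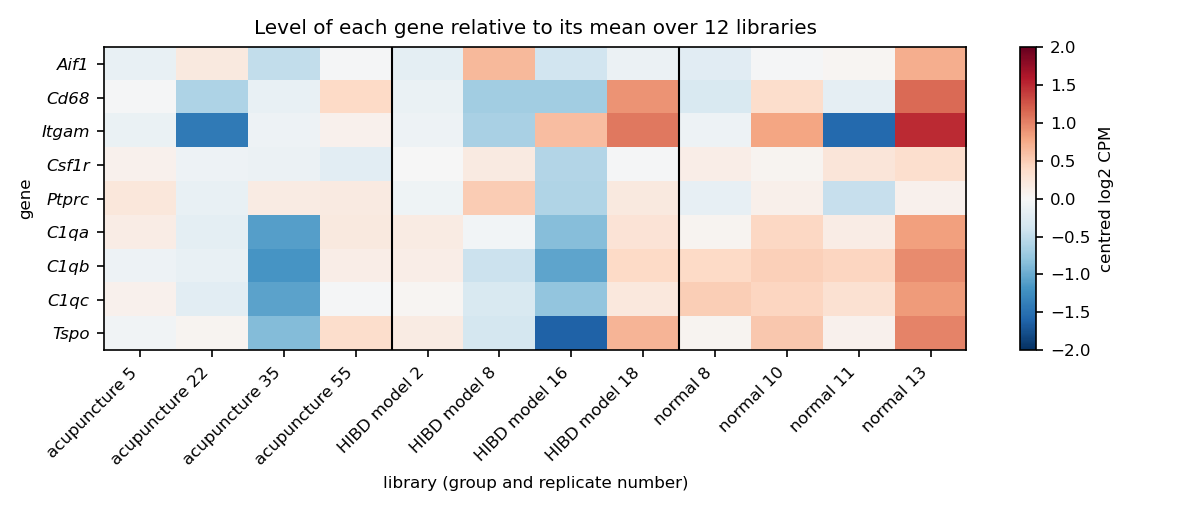
Level of each of the 9 genes (rows) in each of the 12 libraries (columns) as log2 CPM minus the gene's mean over 12 libraries. Normal replicate 13 is high for all genes except Ptprc, where it is near the mean, and acupuncture replicate 35 and HIBD model replicate 16 are low for the C1q genes and Tspo.

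Other genes were ranked by how closely they followed the mean profile of the 9 over the 12 libraries. The measure was the root-mean-square difference of log2 CPM after centring, over 14064 genes with an Ensembl identifier and a mean of at least 1 CPM. The closest was ENSRNOG00000017123 with a difference of 0.14, then ENSRNOG00000019246 with 0.16 and ENSRNOG00000056216 with 0.17, against a median of 0.43 over all ranked genes. Among the 9 genes themselves, which make up the profile, C1qa was closest to it at 0.20 and Itgam farthest at 0.74. ENSRNOG00000017123 had means of 19.6 ± 5.33 CPM for acupuncture, 19.1 ± 5.04 CPM for HIBD model and 25.5 ± 8.45 CPM for normal (SD, n = 4). The files give no names for these identifiers.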

How the data were processed

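The authors deposited estimated counts per transcript row for 12 libraries and FPKM values per transcript row in a file for each library. The submitters' processing notes name Rnor_6.0 as a build and HTSeq 0.6.0 as a tool, without saying what each was used for. No aligner is given in the sources used here. The unit FPKM is named in neither the files nor the labels and was read from the deposited values. In 12003 rows above 2000 in every library, the estimated count equalled the FPKM times a factor of its row and library (median deviation 0.00114%). This product also pairs the rows of both kinds of file. Rows with lower values, those of Cd68 and Tspo among them, were outside this check. The symbols of the 9 genes came with the list of identifiers and are not in the files.

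Transcript rows were summed per gene. Since the deposited values are whole numbers, their sums entered edgeR 4.0.16 under R 4.3.3 unrounded (quasi-likelihood test, TMM, filterByExpr, all 12 libraries in 1 fit, no covariate), with Benjamini-Hochberg adjustment over 27885 genes and a threshold of 0.05. CPM values are TMM-scaled. Standard errors come from the F statistic. The estimated counts are not known to be reads. How far a count model's standard errors, p-values and low-value filter hold for them was not tested. Alternatives used DESeq2 1.42.0, limma 3.58.1, other filters and scaling, and each library left out in turn. All 9 genes are named whatever their values. The genes, lists and tests were chosen with earlier results of these data known. The lists of other marker genes needed symbols and were not analysed here.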

Additional observations from a re-analysis of the deposited data

Results flagged for a closer look

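C1qb in normal replicate 13, at 5.84 CPM, lay far from the other 3 normal libraries, which had 4.0 to 4.18 CPM. It was the 1 value so marked among 27 sets of 4 libraries (9 genes in 3 groups), and chance marks about 1 set in 20. Without this library, the C1qb log2 fold change against normal was -0.55 for HIBD model (edgeR unadjusted p = 0.165) and -0.69 for acupuncture (edgeR unadjusted p = 0.0914).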

How the results depend on the processing

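In edgeR's main fit 0 of the 9 genes passed in any of the 3 comparisons (1, 0 and 2 at an unadjusted p under 0.05 for HIBD model against normal, acupuncture against HIBD model and acupuncture against normal), and 0 passed in each of 22 alternatives except DESeq2, which called 1, C1qc, for acupuncture against normal. The number of all genes called moved widely. For HIBD model against normal, 27 genes in the main fit, it was 3745 with DESeq2, 5 with limma-voom, 5 without a filter, 5 with a filter of 1 CPM in 4 libraries, 0 with these 2 groups fitted alone (4986 at an unadjusted p under 0.05), 0 with limma-trend on log2(FPKM + 1) (7643 so), 1387 on log2(FPKM + 0.1), 2 with Ensembl transcript rows alone and 2 with Ensembl genes alone. For acupuncture against normal, 23 in the main fit, it was 13 with RLE, 4312 with DESeq2, 9 with limma-voom, 11 without a filter, 8 with the CPM filter, 807 with the 2 groups alone, 1 and 1739 on log2(FPKM + 1) and log2(FPKM + 0.1), and 1 and 2 with Ensembl rows and Ensembl genes alone. For acupuncture against HIBD model, 0 in edgeR (1481 at an unadjusted p under 0.05), it was 184 with DESeq2 and 1 with the 2 groups alone. Leaving out 1 library gave 0 to 3032, 0 to 3094 and 0 to 1 calls for HIBD model against normal, acupuncture against normal and acupuncture against HIBD model, the highest without normal replicate 10 and the 0 of the first 2 without acupuncture replicate 22 (5879 and 5412 at an unadjusted p under 0.05).

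Of 585 fold changes of single genes under an alternative, 546 kept their sign and side of the threshold, 38 changed sign without passing and 1 passed. Between HIBD model and normal, Itgam turned to 0.0803 with limma-voom and 0.0712 on log2(FPKM + 0.1). Between acupuncture and HIBD model, where Csf1r stood at 0.00403, it was -0.00853 with RLE, -0.00855 with DESeq2, -0.0120 without a filter or with the 2 groups alone, -0.0145 with the CPM filter, -0.0212 on log2(FPKM + 1), -0.0202 on log2(FPKM + 0.1) and -0.00399 with Ensembl genes alone, and Tspo turned to 0.10 with limma-voom and 0.0641 on log2(FPKM + 0.1). With 1 library left out, the log2 fold change of HIBD model against normal ran from -0.41 to 0.12 for Aif1, -0.84 to 0.0298 for Cd68, -0.49 to 0.38 for Itgam and -0.0373 to 0.32 for Ptprc. For acupuncture against HIBD model it ran from -0.26 to 0.14 for Aif1, -0.24 to 0.41 for Cd68, -0.13 to 0.11 for Csf1r, -0.12 to 0.24 for Ptprc, -0.29 to 0.11 for C1qa, -0.33 to 0.10 for C1qb, -0.24 to 0.11 for C1qc and -0.30 to 0.34 for Tspo. C1qb, C1qc, C1qa, Csf1r and Tspo kept their sign against normal in every alternative, and the cause of the changes was not tested. On log2(FPKM + 0.1) the median of all genes for acupuncture against normal was -0.10, against 0.02 in the main fit. The filter of 1 CPM left 6 of the 9 genes, without Aif1, Cd68 and Tspo. No paired analysis was possible because only 1 replicate number, 8, occurs in 2 groups, and nothing ties those libraries.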
